A study of Mus musculus with 2 samples.

Results

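Levels and cell-to-cell variation were examined for 34 genes that carry glucose into mouse induced pluripotent stem cells (iPSCs), break it down and handle the products, out of 27998 genes in the matrices. The genes were chosen by name: glucose and lactate transporters, the enzymes of glycolysis, lactate dehydrogenases, the pyruvate dehydrogenase complex with its kinases, phosphoglucomutases and the pentose phosphate pathway. Both genotypes, grown in medium with serum, were profiled in droplets of the 10x Genomics Chromium platform, each as 1 library. The knockout is labelled SRFΔ/Δ, a deletion of both alleles of Srf, the gene for serum response factor, and the wild type is labelled SRFf/f, so its alleles still carry the sites for recombination. The labels do not say whether either line is 1 clone.

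Glycolysis splits glucose into pyruvate in the cytosol. Pluripotent cells are known for sending much of that pyruvate to lactate even when oxygen is present, and they use the pathway's intermediates to make nucleotides and lipids. Primitive endoderm, the extraembryonic lineage that pluripotent cells can turn into, is known for active uptake from its surroundings and for laying down a basement membrane. The factor HIF1 (hypoxia-inducible factor 1) is a known activator of many glycolytic genes and binds the core letters ACGTG or GCGTG, while serum response factor binds the CArG box.

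Cells were kept if they had at least 1000 detected genes, 1 to 10% of their unique molecular identifiers (UMIs) on mitochondrial genes, and fewer than 10 UMIs over each list of fibroblast and macrophage markers. Of 1073 deposited knockout cells, 726 remained, and of 954 wild-type cells, 890. Under the lower mitochondrial limit lay 246 knockout and 17 wild-type cells. Cells with at most 1 UMI over Gata6, Gata4, Sox17, Pdgfra, Dab2, Cubn, Lrp2 and Amn are called cells without endoderm genes (580 knockout, 873 wild type). Those with at least 10 are called cells with endoderm genes (92 knockout, 1 wild type, the latter not used as a group). The sums behind the levels were 14503486 UMIs in the knockout against 22658239 in the wild type for cells without endoderm genes, and 2225185 in the knockout for cells with them. Srf had 3 UMIs in the knockout against 194 in the wild type. The pluripotency genes Pou5f1 (753 and 812 CPM, UMIs scaled to a sum of 1000000, in knockout and wild type) and Sox2 (218 and 203 CPM) were present in both, as the labelled cell type has them. In cells with endoderm genes Pou5f1 was at 463 CPM, Sox2 at 20.7 CPM and Nanog at 4.94 CPM. The other pluripotency markers listed did not all fall. Against knockout cells without endoderm genes, Zfp42 (121 against 105 CPM) and Sall4 (114 against 79.2 CPM) were higher, and Esrrb, Dppa5a and Tdgf1 were lower. With 1 library per genotype, genotype, culture and library cannot be told apart, no test between genotypes was possible, and all 95% intervals given cover the error of counting alone. Both libraries held the same 2 cell barcodes.

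Promoters are shown for 8 of the 33 genes with a RefSeq promoter entry (GRCm38.p6). Ldha, Gapdh, Pgam1 and Eno1 are from the group whose UMIs varied together from cell to cell, Hk2 and Pdk1 are members that did not vary with that group, and Ldhb and Pgk1 differed between the genotypes in opposite directions. Each sequence is the 250 bases before the RefSeq start, 5′ to 3′ on the gene's strand, and none of these 8 windows shares a base with an exon of the GENCODE M21 annotation. Capitals mark ACGTG or GCGTG on either strand, so a match on the other strand reads CACGT or CACGC.
Ldha: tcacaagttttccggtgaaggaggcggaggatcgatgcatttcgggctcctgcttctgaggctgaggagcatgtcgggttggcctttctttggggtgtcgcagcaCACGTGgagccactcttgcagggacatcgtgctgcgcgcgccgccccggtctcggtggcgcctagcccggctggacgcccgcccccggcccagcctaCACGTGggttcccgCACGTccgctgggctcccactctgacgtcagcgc
Gapdh: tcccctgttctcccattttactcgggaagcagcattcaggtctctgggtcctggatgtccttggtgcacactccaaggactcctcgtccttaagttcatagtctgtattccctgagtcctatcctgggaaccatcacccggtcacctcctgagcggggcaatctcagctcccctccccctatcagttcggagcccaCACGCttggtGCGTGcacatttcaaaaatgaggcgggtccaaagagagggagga
Pgam1: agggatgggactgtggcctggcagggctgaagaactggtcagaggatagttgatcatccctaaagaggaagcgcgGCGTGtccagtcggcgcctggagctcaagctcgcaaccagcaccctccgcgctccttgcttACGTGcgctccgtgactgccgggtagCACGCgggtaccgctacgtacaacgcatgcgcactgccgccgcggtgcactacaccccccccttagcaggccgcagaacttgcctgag
Eno1: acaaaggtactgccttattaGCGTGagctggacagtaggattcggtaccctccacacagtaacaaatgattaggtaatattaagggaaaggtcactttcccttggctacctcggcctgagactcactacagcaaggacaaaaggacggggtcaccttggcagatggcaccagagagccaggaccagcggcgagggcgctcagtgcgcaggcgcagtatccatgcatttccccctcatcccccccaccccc
Hk2: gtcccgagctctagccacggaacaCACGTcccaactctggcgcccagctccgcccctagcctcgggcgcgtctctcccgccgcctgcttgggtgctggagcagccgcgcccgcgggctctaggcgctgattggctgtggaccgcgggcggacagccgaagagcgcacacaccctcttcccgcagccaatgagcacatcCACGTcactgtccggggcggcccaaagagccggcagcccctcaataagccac
Pdk1: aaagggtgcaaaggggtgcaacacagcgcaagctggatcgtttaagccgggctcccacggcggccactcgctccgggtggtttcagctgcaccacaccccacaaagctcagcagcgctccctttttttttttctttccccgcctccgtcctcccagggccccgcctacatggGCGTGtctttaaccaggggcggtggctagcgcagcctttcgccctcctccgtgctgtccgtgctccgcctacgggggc
Ldhb: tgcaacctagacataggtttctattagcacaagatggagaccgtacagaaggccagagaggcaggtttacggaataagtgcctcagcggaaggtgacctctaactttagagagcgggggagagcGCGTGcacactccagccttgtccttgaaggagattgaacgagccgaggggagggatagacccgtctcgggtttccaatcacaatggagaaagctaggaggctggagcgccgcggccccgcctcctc
Pgk1: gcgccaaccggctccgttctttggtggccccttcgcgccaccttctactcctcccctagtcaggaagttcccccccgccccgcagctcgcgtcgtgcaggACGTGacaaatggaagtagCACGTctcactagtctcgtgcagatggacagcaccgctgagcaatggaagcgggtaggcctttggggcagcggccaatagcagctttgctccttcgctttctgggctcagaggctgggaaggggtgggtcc

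The windows of the co-varying group are Ldha at chr7:46845554-46845803 (plus strand, 5 core matches), Gapdh at chr6:125165774-125166023 (minus strand, 2 core matches), Pgam1 at chr19:41911621-41911870 (plus strand, 3 core matches) and Eno1 at chr4:150236458-150236707 (plus strand, 1 core match). Those of the other 4 are Hk2 at chr6:82774455-82774704 (minus strand, 2 core matches), Pdk1 at chr2:71872974-71873223 (plus strand, 1 core match), Ldhb at chr6:142507958-142508207 (minus strand, 1 core match) and Pgk1 at chrX:106186850-106187099 (plus strand, 2 core matches). Over all 33 members, ACGTG or GCGTG was found on either strand in 26 windows (78.8%), against 38.6% of 32851 RefSeq promoters of the same length. ACGTG alone was in 39.4% against 16.6%, GCGTG alone in 54.5% against 28.2%, and the E-box CACGTG, which contains ACGTG on both strands, in 9.09% against 6.02%. The CArG box (CC, any 6 of A or T, GG) was in 0 of 33 windows and in 1.47% of all promoters. With so low a share over all promoters, 0 of 33 windows does not set the members apart. Both cores contain a CG step, and the members' windows had a median GC content of 60.4% against 52.4% over all promoters. The part of base composition in the difference in core counts was not tested. The members with no core letters in this window were Hk1, Gpi1, Aldoa, Tpi1, Eno2, Pkm and Dlat. The windows of Aldoa, Tpi1, Pkm and Gpi1 share 193, 138, 208 and 167 bases with an M21 exon. Where a gene has more than 1 RefSeq start, as Aldoa and Pkm do, only 1 was read. Whether core letters go with variation across cells was not tested.

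In cells without endoderm genes, glycolytic genes were on the whole slightly lower in the knockout, and Ldhb stood furthest from the rest. The members held 0.819% of knockout UMIs (exact interval 0.814 to 0.823) against 0.985% of wild-type UMIs (0.981 to 0.989). Of the 34 genes, 30 averaged 10 CPM or more across the genotypes. The median of their log2 ratios (knockout over wild type) was -0.19, against 0.06 over the 6438 genes of at least 10 CPM. There were 10 members above 0 and 20 below, against 3732 and 2706 of those 6438 genes. At a log2 ratio of at least 0.5 there were 2 members, where 7.11% of all genes lay, and at -0.5 or less there were 7, where 4.12% of all genes lay. Hk1 and Aldoc, both among the 7, passed the minimum only through the wild type, so they had to be lower in the knockout. The plot of levels gives every gene in each group of cells.

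**Figure D1:**
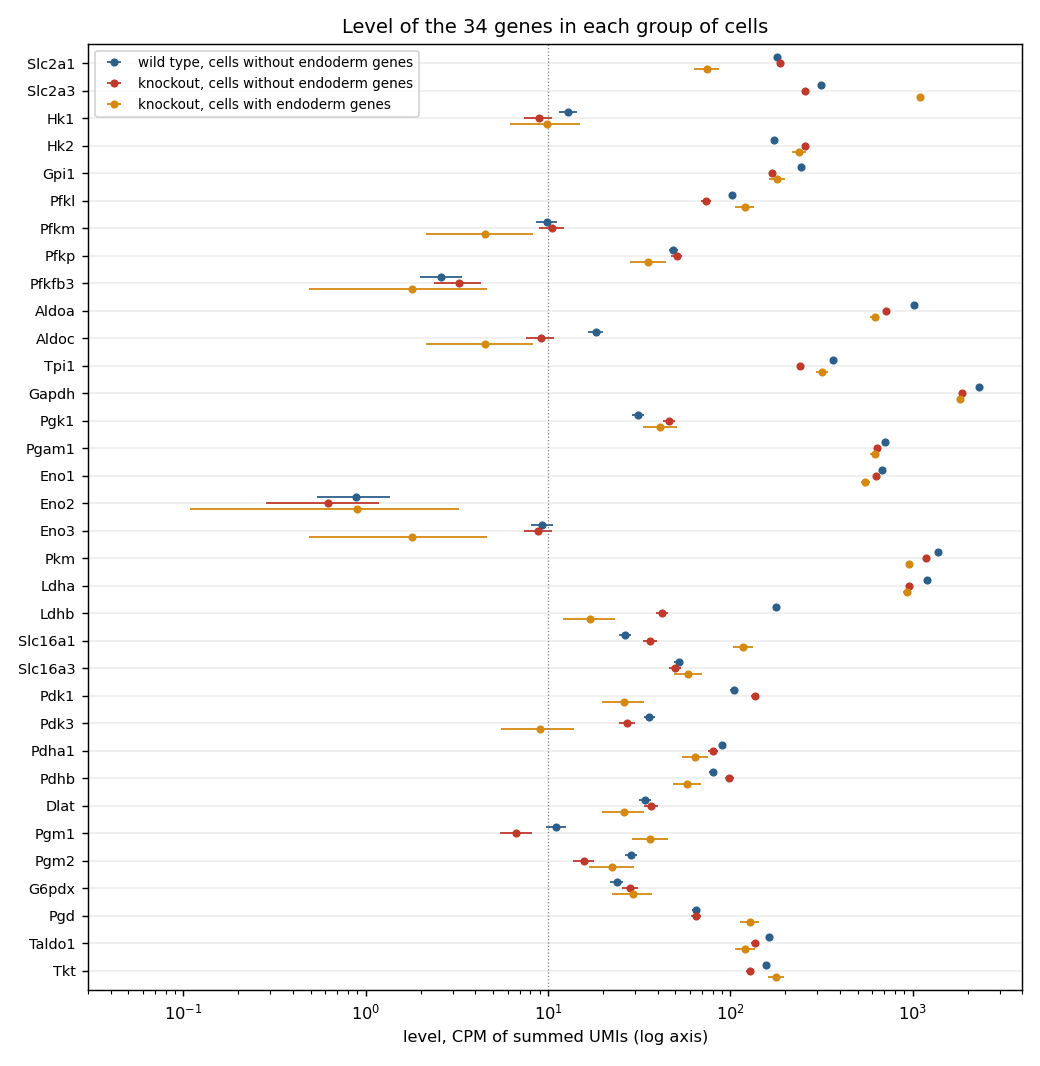
Level of each of the 34 genes as CPM of summed UMIs on a log axis, in wild-type and knockout cells without endoderm genes and in knockout cells with endoderm genes. Points are sums over cells of 1 library, bars are 95% Poisson intervals, and the dotted line marks 10 CPM; Ldhb separates the genotypes, at 178 CPM in the wild type and 42.2 CPM in the knockout, and Slc2a3 sits at 1101 CPM in cells with endoderm genes.

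Glucose enters through Slc2a1 and Slc2a3, which encode the transporters GLUT1 and GLUT3. Slc2a1 had 2726 UMIs (188 CPM) in the knockout against 4065 (179 CPM) in the wild type, a log2 ratio of 0.07 (-0.003 to 0.14). Slc2a3 had 3736 UMIs (257.6 CPM) in the knockout against 7127 (314.5 CPM) in the wild type, a log2 ratio of -0.29 (-0.35 to -0.23). The sign of the Slc2a3 ratio hung on which cells were taken: with no limit on endoderm genes it was 0.21. Slc2a3 lies on chr6:122727809-122801640 (GRCm38, minus strand), beside the pluripotency genes Nanog and Dppa3, with gaps of 13.2 kb and 97.5 kb between the annotated genes, and Gdf3 at 118 kb. Nanog and Dppa3 were both lower in the knockout (log2 ratios -0.49 and -1.74) and Gdf3 was not (0.14). Across cells, the correlation of Slc2a3 with these 3 genes lay between -0.08 and 0.13.

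Hexokinase, which traps glucose as glucose 6-phosphate, is represented by Hk2 and Hk1. Hk2, on chr6:82725025-82774454, had 3730 UMIs (257.2 CPM) in the knockout against 3920 (173 CPM) in the wild type, a log2 ratio of 0.57 (0.51 to 0.64). Hk1 had 129 UMIs (8.89 CPM) and 292 (12.9 CPM), a log2 ratio of -0.53 (-0.85 to -0.23). Hk1 therefore made up 3.34% of hexokinase UMIs in the knockout (exact interval 2.80 to 3.96) and 6.93% in the wild type (6.18 to 7.74).

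The next steps convert glucose 6-phosphate to triose phosphates, and most of their genes were lower in the knockout. Gpi1, the isomerase, was at 169 CPM against 243 CPM (log2 ratio -0.53, -0.59 to -0.46). Among the phosphofructokinases, which commit sugar to the pathway, Pfkl was at 73.6 against 103 CPM (-0.48), Pfkp at 50.7 against 48.7 (0.06) and Pfkm at 10.5 against 9.84 (0.09). The aldolase Aldoa was at 715 against 1017 CPM (-0.51, -0.54 to -0.48), and its relative Aldoc at 9.10 against 18.3 CPM (-1.002, -1.299 to -0.72). Triose phosphate isomerase, Tpi1, was at 242 CPM against 364 CPM (-0.59, -0.64 to -0.53). The bifunctional enzyme gene Pfkfb3, which sets a phosphofructokinase activator, had 47 and 59 UMIs and was below 10 CPM.

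The later, ATP-yielding steps differed less, apart from Pgk1. Gapdh was at 1853 CPM in the knockout against 2310 CPM in the wild type (log2 ratio -0.32), Pgam1 at 638 and 708 (-0.15), Eno1 at 627 and 675 (-0.11) and Pkm, the pyruvate kinase gene, at 1189 and 1374 (-0.21). Phosphoglycerate kinase, Pgk1, on X:106187100-106203699, went the other way, with 666 UMIs (45.9 CPM) in the knockout against 708 (31.2 CPM) in the wild type, a log2 ratio of 0.56 (0.40 to 0.71). Pgk1, Gapdh, Eno1 and Aldoa have near-identical copies elsewhere in the genome, and the rule for reads shared with them is not given in the sources used here, so their levels are uncertain. The copies listed in the matrix had few UMIs: 17 and 34 for Pgk1-rs7 and 189 and 229 for Eno1b in knockout and wild type. Eno3, with 128 and 211 UMIs, and Eno2, with 9 and 20, stayed below 10 CPM.

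Lactate dehydrogenase was where the genotypes differed most. Ldha encodes the subunit that dominates in glycolytic tissues and Ldhb the one that dominates in oxidative tissues. Ldhb, on chr6:142490249-142507957 (minus strand), had 612 UMIs (42.2 CPM) in the knockout against 4042 (178 CPM) in the wild type, a log2 ratio of -2.08 (-2.20 to -1.96). Ldha had 13827 UMIs (953 CPM) and 27312 (1205 CPM), a log2 ratio of -0.34. Ldhb made up 4.24% of the UMIs of the pair in the knockout (3.92 to 4.58) and 12.9% in the wild type (12.5 to 13.3). In all 16 alternatives with a value for it the Ldhb ratio stayed between -2.21 and -1.88.

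Cells at 0 Ldhb UMIs were more frequent in the knockout, and its highest counts were lower. For an equal depth, 10000 UMIs were drawn without replacement from each cell (thinning), which left 520 knockout and 795 wild-type cells without endoderm genes (60 and 78 were too shallow). Wild-type cells held a mean of 1.73 Ldhb UMIs, with a lowest of 0, a median of 1 and a highest of 35, and 37.9% of them were at 0. Knockout cells held a mean of 0.40, with a lowest and a median of 0 and a highest of 9, and 72.7% were at 0. At 10 or more Ldhb UMIs there were 17 wild-type cells and 0 of 520 knockout cells. By counting error alone this allows a share of up to 0.577% (3 cells). The tenth of cells with most Ldhb carried 44.4% of its UMIs in wild-type cells and 56.9% in knockout cells, and the part of CV2 (variance over squared mean) above Poisson sampling was 1.83 and 2.03. Over wild-type cells, the members most correlated with Ldhb were Gapdh (r = 0.30) and Eno1 (0.28). The knockout mean of 0.40 was under the 0.5 UMIs set for correlations, so no comparison is made there. These values were looked at after the size of the Ldhb difference was known.

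Lactate leaves or enters through Slc16a1 and Slc16a3, which encode MCT1 and MCT4. Slc16a1 had 527 UMIs (36.3 CPM) in the knockout against 599 (26.4 CPM) in the wild type, a log2 ratio of 0.46 (0.29 to 0.63). Slc16a3 had 719 (49.6 CPM) and 1181 (52.1 CPM), a log2 ratio of -0.07.

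At the entry to the mitochondrion the kinases and the complex they switch off moved in no common direction. Pdk1, a kinase that inhibits pyruvate dehydrogenase, had 1969 UMIs (136 CPM) in the knockout against 2358 (104 CPM) in the wild type, a log2 ratio of 0.38 (0.30 to 0.47). Pdk3 was at 27.0 against 36.0 CPM (-0.41). Of the complex's own subunits, Pdhb was at 98.9 against 80.5 CPM (0.30), Dlat at 36.8 against 34.03 (0.11) and Pdha1 at 80.4 against 90.03 (-0.16). Pgk1, Pdk3, Pdha1 and G6pdx lie on the X chromosome and had ratios of both signs. Xist, the RNA of an inactive X, was at 15 UMIs in the knockout.

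The branches off glycolysis were mixed too. The phosphoglucomutases link glucose 6-phosphate to glycogen, and their symbols need care. The gene deposited as Pgm2 has the identifier ENSMUSG00000025791, on chr4:99929414-99987294, which GENCODE M21 calls Pgm1, while the gene deposited as Pgm1 has ENSMUSG00000029171, on chr5:64092950-64128351, which M21 calls Pgm2; the deposited symbols are used here. Pgm2 had 228 UMIs (15.7 CPM) in the knockout against 648 (28.6 CPM) in the wild type, a log2 ratio of -0.86 (-1.09 to -0.64). Pgm1 had 97 and 252 UMIs, with a mean below 10 CPM. In the pentose phosphate pathway, which makes NADPH and ribose, G6pdx, its first enzyme, was at 28.1 against 23.8 CPM (0.24) and Pgd at 65.02 against 65.10 (-0.001). The later enzymes Taldo1, at 136 against 162 CPM (-0.25), and Tkt, at 128 against 156 CPM (-0.29), were lower in the knockout.

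**Figure D2:**
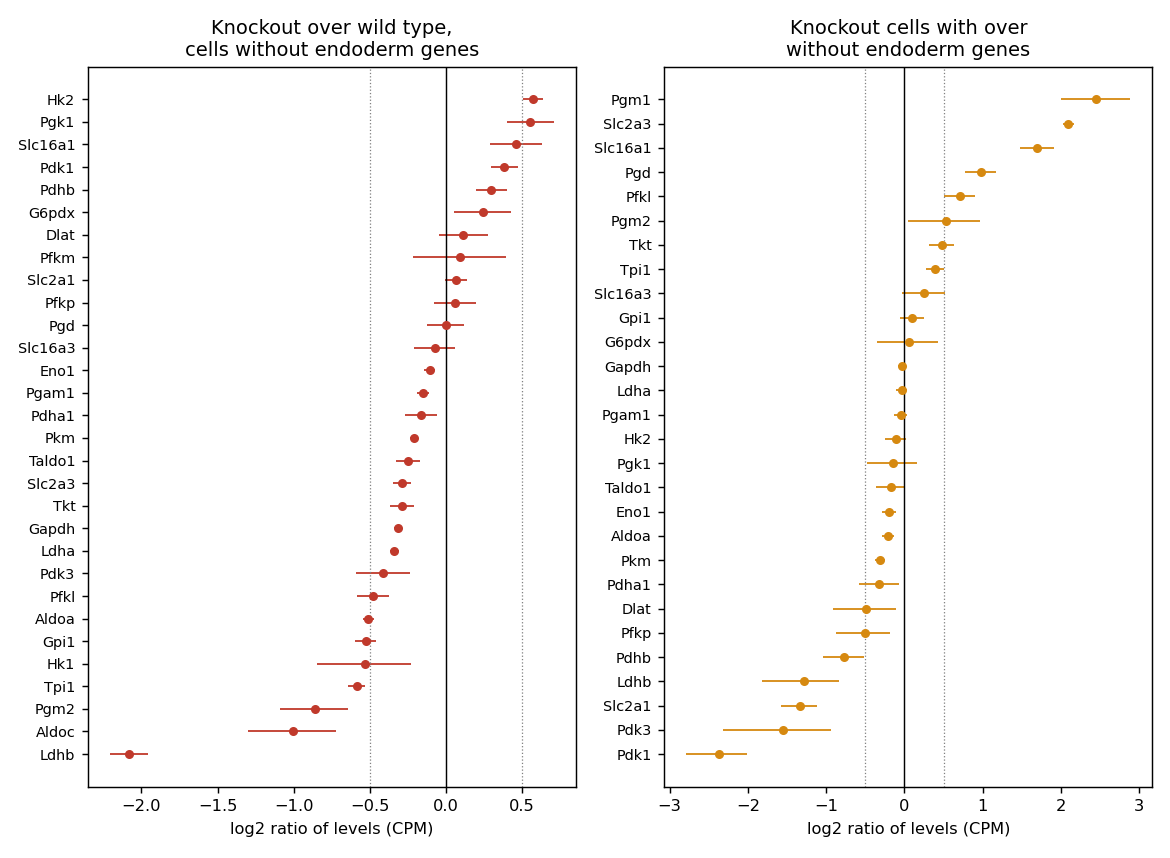
Log2 ratio of levels for each member of at least 10 CPM, knockout over wild type in cells without endoderm genes (left) and knockout cells with over without endoderm genes (right). Bars are 95% intervals of counting error and dotted lines mark 0.5 and -0.5; Ldhb is lowest on the left at -2.08, and on the right Pgm1 (2.45), Slc2a3 (2.10) and Slc16a1 (1.70) lead while Pdk1 is lowest at -2.37.

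Cell state and quality also differed between the libraries. In cells without endoderm genes the median mitochondrial share was 4.36% in the knockout against 3.47% in the wild type, and a chromosome 8 share above 1.2 times the wild-type median was seen in 47.9% of knockout and 9.85% of wild-type cells. No member lies on chromosome 8, and in cells with the usual chromosome 8 share the members' median ratio was -0.22. The fibroblast list summed to 12.4 CPM in the knockout against 8.43 in the wild type (1 of its 10 genes, Lum, at 0 in both), and the macrophage list to 5.10 and 1.68 CPM (C1qa at 0 in the knockout, Ptprc at 0 in the wild type). Their part in the ratios was not tested. Keeping cells under 1% mitochondrial UMIs brought the members' median ratio to -0.08, against 0.04 over all genes, with 14 members above 0 and 16 below. In that setting 1 member was at 0.5 or more and 4 at -0.5 or less, and the share of all genes past 0.5 is not given.

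Neighbouring pathways were read from lists chosen with earlier results of these data known, against the same 7.11% of all genes at 0.5 or more and 4.12% at -0.5 or less. Of 49 other genes of glycolysis, the pentose branch and glycogen, 20 had at least 10 CPM, with a median ratio of -0.05, 0 at 0.5 or more and 1 (5%) at -0.5 or less. The highest were Txnip, an inhibitor of glucose uptake (0.48), and Adpgk, an ADP-dependent glucokinase (0.43), and the lowest Slc2a8, a sugar transporter (-0.53), and Pygb, a glycogen phosphorylase (-0.33), which both passed the minimum only through the wild type and so had to be lower in the knockout. Of 20 citric acid cycle genes, 19 were measured at a median of -0.06, 0 were at 0.5 or more and 1 (5.26%) at -0.5 or less. That one was Idh2, the mitochondrial NADP-dependent isocitrate dehydrogenase, at 44.3 CPM in the knockout against 87.5 in the wild type (-0.98), followed by Idh3b (-0.33), with Dlst (0.23) highest. Of 24 hypoxia-response genes outside the members, 18 were measured, with a median of -0.27, 1 (5.56%) at 0.5 or more and 5 (27.8%) at -0.5 or less. Of those 5, P4ha1 and Bhlhe40 passed the minimum only through the wild type. The lowest were Bhlhe40, a transcriptional repressor (-1.31), and Bnip3, a mitophagy receptor, at 55.9 against 132 CPM (-1.24). The highest were the HIF subunit genes Epas1 (0.62) and Hif1a (0.37). Of 9 regulators of pluripotent metabolism, 7 were measured, with a median of 0.21, 1 (14.3%) at 0.5 or more and 0 at -0.5 or less. Myc, a known activator of glycolytic genes and of Ldha, was at 20.8 CPM in the knockout against 7.11 CPM in the wild type (1.54), having passed the minimum only through the knockout. Esrrb (-0.02) and Mycn (0.04) were lowest.

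Within each library, the core glycolytic genes varied together from cell to cell. Of the members, 19 had a thinned mean of at least 0.5 UMIs in both libraries, and Pearson correlations were taken over cells on log2(thinned UMIs + 1). The mean over their 171 pairs was 0.137 in 795 wild-type cells and 0.129 in 520 knockout cells. Over all pairs of the 2089 genes past that minimum it was 0.0052 and 0.0072. Those genes were not matched to the members in level. Ldha with Gapdh reached 0.61 in the wild type and 0.54 in the knockout, Ldha with Aldoa 0.55 and 0.59, and Pkm with Eno1 0.60 and 0.45. All points of 1 value share a library, and thinning gave them 1 depth.

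**Figure D3:**
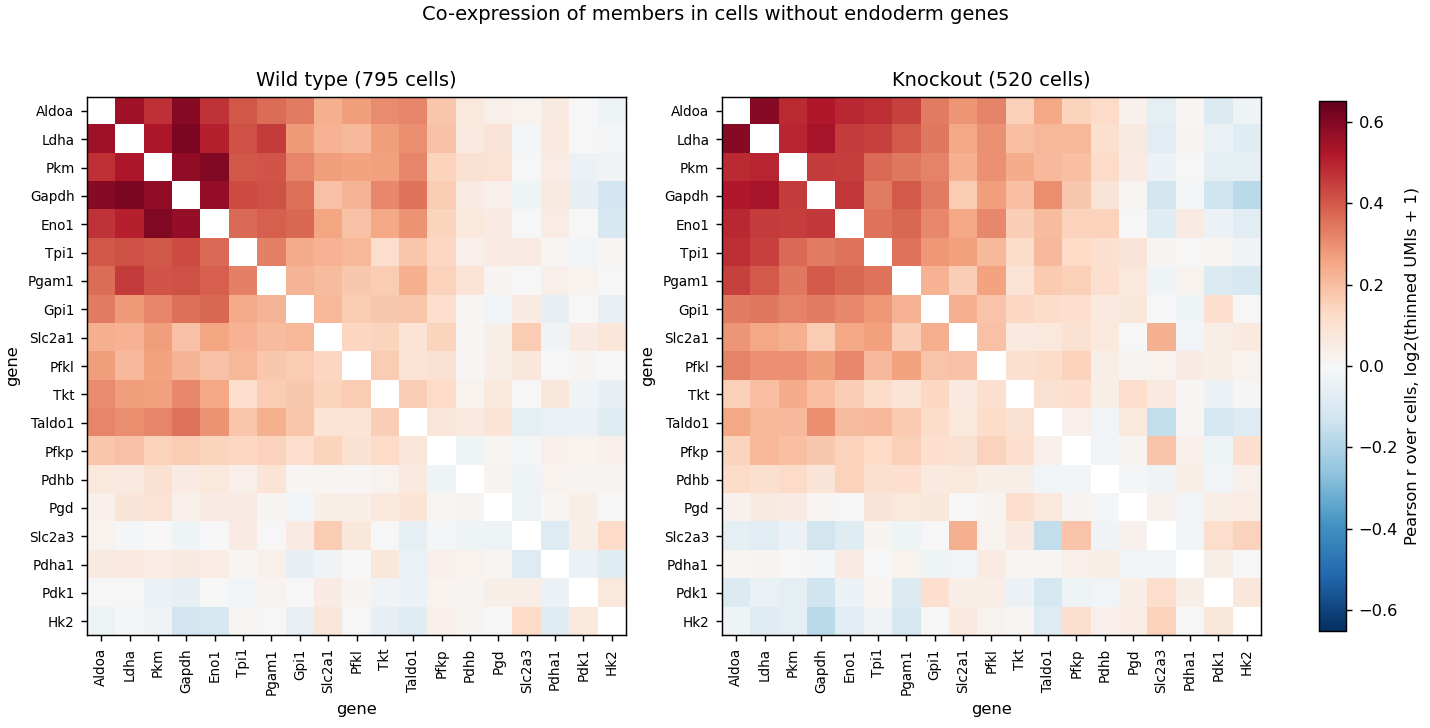
Pearson correlation over cells for every pair of the 19 members with enough UMIs, in wild-type cells (left) and knockout cells (right) without endoderm genes. Genes are ordered by their correlation with the mean of the other members, averaged over both libraries. In both libraries Aldoa, Ldha, Pkm, Gapdh and Eno1 form a block of high values, with Ldha and Gapdh at 0.61 in the wild type and 0.54 in the knockout. Hk2, Pdk1 and Slc2a3 stay near 0 or below against it, down to -0.18 for Hk2 with Gapdh in the knockout.

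The members differed widely in how far they went with the rest. Against the mean of the other members, Aldoa had r = 0.62 in the wild type and 0.62 in the knockout, Ldha 0.63 and 0.61, Pkm 0.64 and 0.56, Gapdh 0.63 and 0.52, and Eno1 0.60 and 0.54. Tpi1 (0.47 and 0.51), Pgam1 (0.48 and 0.45), Gpi1 (0.38 and 0.42), Slc2a1 (0.35 and 0.35) and Pfkl (0.30 and 0.39) came next. Tkt (0.33 and 0.24), Taldo1 (0.33 and 0.22) and Pfkp (0.22 and 0.25) followed, and the values of Pdhb (0.08 and 0.13) and Pgd (0.08 and 0.09) were lower. Slc2a3 (0.03 and 0.03), Pdha1 (0.02 and 0.02), Pdk1 (0.01 and -0.02) and Hk2 (-0.03 and -0.01) were near 0. Gapdh with Hk2 was below 0, at -0.12 in the wild type and -0.18 in the knockout. Of the glucose transporter genes, Slc2a1 thus went with the enzymes more than Slc2a3 in both libraries. Counting noise lowers r for genes with few UMIs, and the part of level in this order was not tested. Thinned knockout means were 17.6 UMIs for Gapdh and 6.17 for Eno1, but 0.81 for Pdha1, 0.63 for Pgd and 0.51 for Pfkp. The means of Hk2 (2.51) and Slc2a3 (2.61) were above that of Gpi1 (1.72) and below that of Aldoa (6.84). Members were not matched in level.

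The genes outside the list that went most with the members' mean score, out of 2070, mixed several functions. They were the uridine phosphorylase gene Upp1 (mean r over both libraries 0.48), the stress-induced mTORC1 inhibitor Ddit4 (0.46), the ubiquitin gene Ubb (0.45), the ATP synthase subunit gene Atp5b (0.44), the cyclophilin gene Ppia (0.44), the chaperonin subunit genes Cct7 (0.43) and Cct5 (0.38), the nucleolar gene Npm1 (0.41), Bnip3 (0.39) and the chaperone gene Hsp90ab1 (0.38). Across cells, the score ran against the mitochondrial share of UMIs, with r = -0.41 in the knockout against -0.44 in the wild type. Its correlation with UMIs per cell before thinning was 0.05 and 0.16, and with the chromosome 8 share 0.12 and -0.06. The part of the mitochondrial share in the co-expression was not tested.

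The series title names gene expression noise. For the members, cell-to-cell variation at equal depth differed little in the middle and more for a few genes. Variation was taken as CV2, the variance over cells divided by the squared mean. On the log2 scale, the knockout's CV2 over that of the wild type had a median of 0.07 over the 19 members and -0.01 over 2089 genes. Above 0 were 15 of 19 members and 997 of the 2089 genes. At a log2 ratio of at least 0.25 there were 5 members (15.6% of all genes), and at -0.25 or less 3 (18.4% of all genes). The median changed sign, to -0.04, when cells with 0 endoderm UMIs were taken, and to -0.01 in cells with the usual chromosome 8 share.

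**Figure D4:**
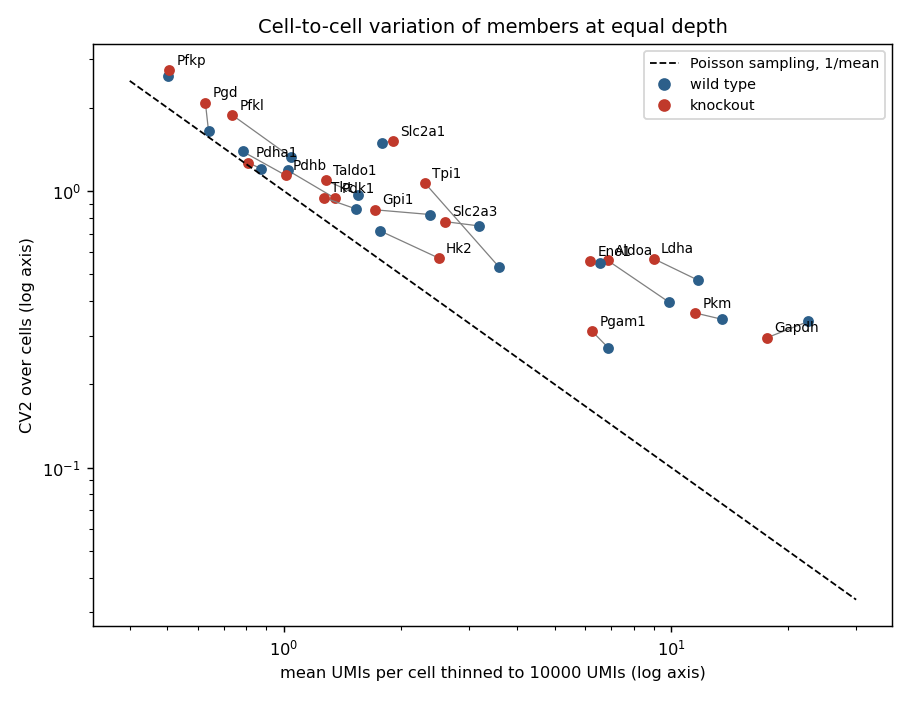
CV2 over cells against the mean UMIs per thinned cell for the 19 members, both axes log, with a grey line joining the wild-type and knockout point of each gene and a dashed line at the variation of Poisson sampling (1 over the mean). Tpi1 stands out, at 0.53 in the wild type and 1.07 in the knockout, while Gapdh is lower in the knockout (0.295 against 0.338).

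By CV2, Tpi1 had the largest difference among the 19 members, with a value of 1.07 in the knockout against 0.53 in the wild type (log2 ratio 1.01). Its thinned mean was 2.31 UMIs against 3.59, and its counts ran from 0 to 20, with a median of 2, in the knockout and from 0 to 19, with a median of 3, in the wild type. A lower mean alone raises CV2, so the part above Poisson sampling (CV2 minus 1 over the mean) was also taken: it was 0.635 in the knockout against 0.253 in the wild type. Aldoa, with a CV2 of 0.561 against 0.396, and Ldha, with 0.568 against 0.476, were likewise higher above Poisson, at 0.415 against 0.294 and 0.458 against 0.391. Pfkl (log2 CV2 ratio 0.51) and Pgd (0.34) completed the 5, with parts above Poisson of 0.521 against 0.365 and 0.491 against 0.080. By that part the ratio of Pgd (log2 2.61) was larger than that of Tpi1 (1.33), at Pgd means of 0.63 and 0.64 UMIs. The wild-type part of Pgd, 0.080, was a small remainder of a CV2 of 1.645, so that ratio is uncertain. The 3 on the other side, Pdk1 (-0.33), Hk2 (-0.33) and Pdhb (-0.29), had higher means in the knockout. Their parts above Poisson did not follow CV2: Hk2 was at 0.174 against 0.153, Pdhb at 0.149 against 0.111 and Pdk1 at 0.203 against 0.210. Above Poisson, the members' median log2 ratio was 0.09, against 0.07 over the 1860 genes with such a part in both libraries. Over the 15 members whose means differed by at most 0.5 (log2) between libraries it was -0.01, against 0.05 over 1732 genes.

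Slc2a3 shows how the choice of cells sets a noise value. In cells without endoderm genes its CV2 was 0.775 in the knockout against 0.748 in the wild type, a log2 ratio of 0.05. With no limit on endoderm genes it was 1.53 in 662 knockout cells and 0.744 in the 811 wild-type cells (log2 ratio 1.04). The cells added were those with 2 to 9 and with 10 or more endoderm UMIs.

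Inside the knockout culture, cells with endoderm genes differed most in genes of transporters, pyruvate dehydrogenase kinases and phosphoglucomutase. Slc2a3, Slc16a1 and Pgm1 were higher in them, and Pdk1, Pdk3, Slc2a1 and Ldhb lower, while the log2 ratios of Gapdh, Ldha, Pgam1 and Hk2 lay between -0.11 and -0.03. Pkm (-0.31, -0.38 to -0.25), Aldoa (-0.21) and Eno1 (-0.19) were lower. Of the members, 28 had a mean of at least 10 CPM over both groups of cells, and their median log2 ratio of cells with over cells without endoderm genes was -0.08, against 0.11 over 6945 genes. There were 6 members at 0.5 or more and 6 at -0.5 or less, where 29.6% and 13.9% of all genes lay. Pgm1 passed the minimum only through the cells with endoderm genes and Pdk3 only through those without. The members held 0.851% of UMIs in cells with endoderm genes. Another scaling (TMM) moved the median of all genes from 0.11 to -0.04 and lowers every ratio in this comparison by the same amount. All these cells come from 1 library, so the values describe 1 culture.

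The 2 glucose transporters parted. Slc2a3 had 2450 UMIs (1101 CPM) in the 92 cells with endoderm genes, against 257.6 CPM without, a log2 ratio of 2.10 (2.02 to 2.17). Slc2a1 had 165 UMIs (74.2 CPM), against 188 CPM without, a log2 ratio of -1.34 (-1.58 to -1.11). Slc2a3 thus made up 93.7% of the UMIs of the pair in cells with endoderm genes (exact interval 92.7 to 94.6), 57.8% in knockout cells without them and 63.7% in the wild type; these are shares of UMIs, not scaled to length. In cells thinned to 10000 UMIs, Slc2a3 ran from 0 to 41 with a median of 11 in 89 cells with endoderm genes, and from 0 to 14 with a median of 2 in 520 cells without, so the groups overlapped.

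The lactate transporter gene Slc16a1 was at 117.7 CPM with and 36.3 CPM without endoderm genes, a log2 ratio of 1.70 (1.48 to 1.91), and Slc16a3 at 58.9 and 49.6 CPM (0.25). Pdk1 was at 26.1 CPM with and 136 CPM without, a log2 ratio of -2.37 (-2.783 to -2.004), and Pdk3 at 8.99 and 27.0 CPM (-1.55). Both genes for kinases that inhibit pyruvate dehydrogenase were thus lower, and so was its subunit gene Pdhb (-0.77). Ldhb was at 17.1 CPM with and 42.2 CPM without (-1.29). Pgm1 was at 36.4 against 6.69 CPM (2.45, 2.001 to 2.885) and Pgm2 at 22.5 against 15.7 (0.53). Pgd was at 127.6 against 65.02 CPM (0.97), Pfkl at 120 against 73.6 (0.71), and Pfkp at 35.5 against 50.7 (-0.51). Tkt (0.48) and Tpi1 (0.40) were on the higher side and Dlat (-0.49) on the lower, short of 0.5.

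The levels were then followed over the number of endoderm UMIs per knockout cell, in bins set after the values above were seen (0, 1, 2 to 9, 10 to 29, 30 to 99, and 100 or more UMIs, with 439, 141, 54, 29, 41 and 22 cells). Slc2a3 stood at 250.7, 276, 299, 441, 1152 and 1786 CPM in these bins. Pdk1 stood at 136, 136, 134, 37.6, 24.5 and 15.1 CPM. At 10 to 29 endoderm UMIs both genes had left the level of their low bins, and both stood further from it in the highest bin. Slc2a1 stood at 194, 172, 146, 92.6, 75.7 and 50.4 CPM, and Slc16a1 at 35.6, 38.2, 41.1, 44.9, 150.3 and 151 CPM. Slc16a1 was near its low level up to 29 endoderm UMIs and high from 30 on. Several glycolytic enzyme genes were lower in the highest bin, of 22 cells, than in the lowest. Gapdh was at 1341 against 1878 CPM, Pkm at 871 against 1205, Aldoa at 492 against 742 and Ldha at 765 against 962. Tpi1 was at 314 against 245 CPM. Gapdh and Ldha did not fall steadily: Gapdh was at 2181 CPM at 10 to 29 endoderm UMIs and Ldha at 1038 CPM at 30 to 99.

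**Figure D5:**
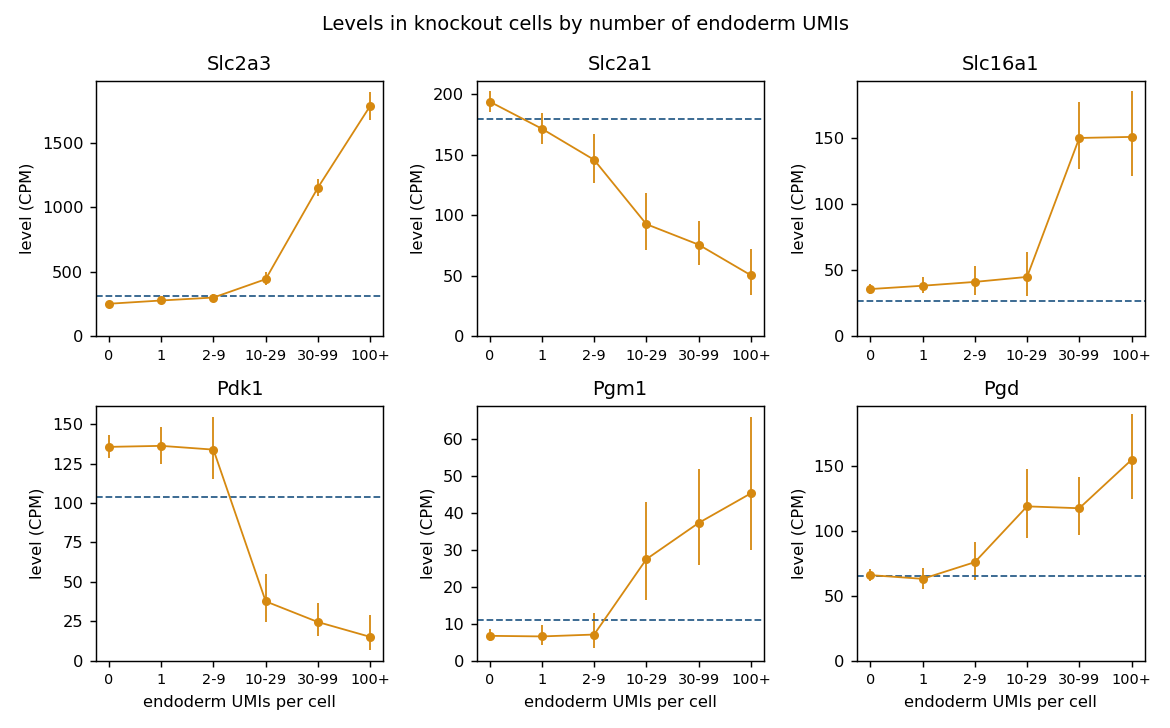
Level (CPM of summed UMIs, axis from 0) of 6 members in knockout cells by endoderm UMIs per cell, with 95% Poisson intervals; the dashed line is the level in wild-type cells without endoderm genes. Slc2a3 goes from 250.7 to 1786 CPM and Pdk1 from 136 to 15.1 CPM between the lowest and highest bin, with the step in Pdk1 at 10 to 29 UMIs.

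Among the 89 cells with endoderm genes that could be thinned, Slc2a3 also followed the amount of endoderm genes (r = 0.67). Slc16a1 was at 0.30, Tpi1 at 0.20, Ldha at -0.04, Aldoa at -0.04 and Gapdh at -0.29. The glycolytic block was present in these cells too: over 153 pairs of 18 members the mean correlation was 0.164, and Aldoa with Ldha reached 0.70. Unlike the 19 members used before, these 18 include Slc16a1 and Slc16a3 and lack Pdk1, Pdhb and Pfkp. A mean over all gene pairs is not given for these cells, so 0.164 is not set against the earlier means. Of these cells, 61 of 92 had a chromosome 8 share above 1.2, their median mitochondrial share was 4.37%, and the fibroblast and macrophage lists summed to 10.3 and 4.04 CPM, with 5 and 2 of their 10 genes each at 0. The part of the chromosome 8 share in these ratios was not tested.

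The neighbouring lists are read against the same 29.6% of all genes at 0.5 or more and 13.9% at -0.5 or less. Of the other glycolysis, pentose and glycogen genes, 20 were measured, with a median log2 ratio of 0.68, 11 (55%) at 0.5 or more and 3 (15%) at -0.5 or less. Of the 11, Hkdc1 and Rpia passed the minimum only through the cells with endoderm genes. Hkdc1, a hexokinase relative, was at 24.7 CPM with and 0.345 CPM without endoderm genes (6.04), and Emb, a partner protein of lactate transporters, at 315 against 80.7 CPM (1.96). Txnip (-1.59) and the glycogen synthase gene Gys1 (-1.18) were lowest. Of the citric acid cycle genes, 20 were measured, with a median of 0.25, 4 (20%) at 0.5 or more and 0 at -0.5 or less. They were led by Idh1 (1.44) and Aco1 (1.19), the latter having passed only through the cells with endoderm genes, and Idh3a (-0.26) and Suclg2 (-0.18) were lowest. Of the hypoxia-response genes, 19 were measured, with a median of -0.10, 4 (21.1%) at 0.5 or more and 5 (26.3%) at -0.5 or less. Of the 4, Vegfa, P4ha1 and P4ha2 passed only through the cells with endoderm genes, and of the 5, Epas1 and Egln3 only through those without. The highest were the prolyl 4-hydroxylase genes P4ha2 (4.34) and P4ha1 (3.60), whose products modify collagen, and the lowest Egln3 (-1.87) and Epas1 (-1.78). Of the regulators, 7 were measured, with a median of 0.26, 1 (14.3%) at 0.5 or more and 3 (42.9%) at -0.5 or less. Stat3 (0.59) was highest. The pluripotency factor gene Esrrb (-2.58) and Myc (-1.25), which passed only through the cells without endoderm genes, were lowest.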

How the data were processed

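The deposited matrices hold whole-number UMI counts per gene and cell, not normalised, per the file headers; the authors' counts were used as deposited. Cell Ranger 2.0.0, Seurat 3.1.1 and the build mm10 are named in the submitters' processing notes, with no role or order. How droplets were called cells, and how reads of near-identical, overlapping or antisense genes were counted, is not given in the sources used here. The deposited cells had medians of 20605 UMIs (knockout, 22277996 in all) and 25907 UMIs (wild type, 24005849 in all). No doublet caller was run; an alternative left out the 5% of cells with most UMIs.

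UMIs were summed over the cells of a group and scaled to CPM, and log2 ratios were taken with 0.5 UMIs added to each sum. Members with a mean of at least 10 CPM entered medians and counts, and a log2 ratio of 0.5 either way was the fold used. Intervals are exact (Poisson for a sum, conditional binomial for a ratio, Clopper-Pearson for a share). They cover counting error only. Noise and correlation used cells thinned to 10000 UMIs and genes of at least 0.5 thinned UMIs; Ldhb, under that limit in the knockout, is described apart. The score was the mean over those members of the within-library z of log2(thinned UMIs + 1). All 34 members are named; of each neighbouring list the 2 highest and 2 lowest ratios (some of these are not reported here), and the 10 outside genes most correlated with the score. The promoters shown, the bins of endoderm UMIs and the values of Ldhb across cells were chosen after values were seen. The members and lists were chosen with earlier results of these data known. Positions are from GENCODE M21 (GRCm38) and promoters from RefSeq (GRCm38.p6). Python 3.11.15, numpy 2.4.6, scipy 1.17.1 and, for the TMM alternative, edgeR 4.0.16 were used; the calculations were tested on simulated data.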

Additional observations from a re-analysis of the deposited data

How the results depend on the processing

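No paired analysis was possible because only 1 library was made per genotype. A value is called close here when it moved by under 0.1 (log2), 0.05 (correlation) or 1.5 times (count). Of the alternatives tried for 9 summary values, 86 were close, 16 moved and 2 changed sign, and the cause was not tested. The members' median ratio of knockout over wild type lay between -0.25 and -0.08 over 16 alternatives and was -0.079 with no lower limit on the mitochondrial share. The count at 0.5 or more was 1 under TMM, median-of-ratios scaling, equal weight per cell, a minimum of 50 CPM, no lower mitochondrial limit and without the 5% of cells with most UMIs. The count at -0.5 or less was 4 with equal weight per cell, 50 CPM, no lower mitochondrial limit and 0 endoderm UMIs; fewer genes are tested at 50 CPM. Ldhb, Aldoc and Pgm2 were past 0.5 in all 16 alternatives that gave a value, Tpi1 in 15, Hk2 in 14, Aldoa in 13, and Hk1, Gpi1 and Pgk1 in 12. At the main minimum Aldoc and Hk1 passed only through the wild type, which fixed the sign of their ratios. For cells with over cells without endoderm genes the median was -0.23 under TMM and -0.19 with no lower mitochondrial limit. Without thinning, the mean correlation was 0.332 for the knockout and 0.380 for the wild type, where depth differs between cells. The median log2 CV2 ratio was -0.038 with 0 endoderm UMIs, -0.015 with the usual chromosome 8 share and 0.192 with no limit on endoderm genes. Of single-gene ratios, 601 alternatives were close, 131 moved and 0 reversed past 0.5. Depth limits Pfkfb3, Eno2, Eno3 and Pgm1, and 1 library per genotype limits every comparison of genotypes.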
